A study of Mus musculus with 6 samples.

Results

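The proteasome is the large protease that degrades proteins tagged with ubiquitin in the cytosol and nucleus. Its barrel-shaped core particle is built of stacked rings of alpha subunits (Psma genes), which gate the entrance, and beta subunits (Psmb genes), some of which cut the substrate. The regulatory particle caps the core: its base holds the ATPases that unfold the substrate (Psmc genes), and its lid holds subunits, among the Psmd genes, that remove the ubiquitin chain. All these subunits are needed in fixed proportions, and rapidly dividing blood cells, leukaemic ones included, depend on them. Transcripts of 35 proteasome subunit genes, 15 of the core and 20 of the regulatory particle, are described here out of 24454 gene IDs in the deposited table. They were chosen by symbol: protein-coding genes named Psma, Psmb, Psmc or Psmd with a number, apart from the immunoproteasome genes Psmb8, Psmb9 and Psmb10, whose normalized count reached 10 in 3 or more of the 6 libraries. Of 36 genes that fit the name, Psmb11, a subunit of the thymus proteasome, was the 1 that did not reach this level, at 2.81 at most. Psma8 was just inside, at 10 or more in 4 libraries.

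The data are RNA-seq of leukaemic blasts sorted by the Venus reporter from mouse bone marrow, with 3 wild-type (WT) libraries and 3 libraries carrying a transgene for Stat3β (Stat3β TG), the isoform of the transcription factor STAT3 that lacks part of its C-terminal transactivation domain. The donor fetal liver cells came from C57BL/6 wild-type littermates or from C57BL/6 mice with both the Mx1-Cre recombinase and the Stat3β transgene, and cells of both groups were transformed by a retrovirus carrying the fusion oncogene MLL-AF9. They grew in NSG recipients (NOD.Cg-PrkdcscidIl2rgtm1Wjl/SzJ), mice that lack lymphocytes of their own, which were injected with polyinosine-polycytidine at week 4, and blasts were taken at week 6. The Mx1 promoter answers to interferon, so Cre is induced by the same agent that mimics viral RNA, and the gene-level value of Stat3 sums both splice forms and does not measure the transgene. The labels give neither the age nor the sex of donors or recipients, and are silent on whether the replicates are separate donors. A p-value here therefore reflects library-to-library spread, which may in part be technical.

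Recovered reads per library ranged from 21809788 to 51934498. The 8 markers of myeloid blasts, among them Mpo, Elane and Kit, summed to between 139246 and 219850 normalized counts. The 7 markers of T and NK cells summed to between 202 and 1596, and 1 of them, Cd3e, was at 0 in all 6 libraries. The labels' groups did not divide the libraries cleanly. The leading principal component took up 47.4% of the variance, and on it WT 2 and WT 3 had scores of 64.4 and 49.7. The score of WT 1 was -38.3, beside the Stat3β TG libraries with -31.4, -16.3 and -28.2. Xist and 4 Y-linked genes set WT 1 and WT 3 apart from the other 4 libraries, so WT 2 was no technical repeat of WT 1 or WT 3. Xist was at 42699 and 45196 in WT 1 and WT 3, at 835 in WT 2 and at 19 to 72 in Stat3β TG. The Y-linked genes summed to 59 and 72 in WT 1 and WT 3 and to between 8781 and 11012 in the other 4 libraries. This pattern was unbalanced between the groups, and its part in their differences was not tested. Among markers of other cells, 10 of 10 for mature neutrophils summed to 73094 to 217733 in WT and to 202630 to 322387 in Stat3β TG, highest in Stat3β TG 1. The 10 of monocytes and macrophages summed to 25719 to 37511 in WT and to 33521 to 73778 in Stat3β TG, highest in Stat3β TG 3. Sums for T and NK cells, B cells, erythroid cells, megakaryocytes and stroma were each between 202 and 5831.

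Levels of the subunits differed little between the groups. By the limma test over all 12642 genes tested, 0 of the 35 genes passed an adjusted p of 0.05, where 0% of all genes did, and the smallest adjusted p among the 35 was 0.668. The counts on the recovered reads were also 0 by edgeR (0% of all genes) and 0 by DESeq2 (0.134% of all genes). At an unadjusted p under 0.05 there was 1 subunit gene, Psma8, higher in Stat3β TG, where 6.1% of all genes reached that level (3.56% higher and 2.54% lower). The sign leaned downward: 27 of the 35 genes (77.1%) were lower in Stat3β TG and 8 higher, where 48.6% of all genes tested were lower. The median log2 fold change of the 35 was -0.06, against 0.01 over all genes tested. This lean depended on which libraries entered. Without Stat3β TG 1, 17 were lower and 18 higher, and the median was 0.02, the same as over all genes. Without both WT 2 and WT 3, 18 were lower and 17 higher, with a median of -0.01. The median was -0.12 without WT 1 (25 lower), -0.03 without WT 3 (23 lower), and -0.10 without Stat3β TG 2 or 3 (30 lower each). Under other scalings of the same libraries 24 (quantile normalization) and 30 (edgeR, DESeq2) of the 35 were lower.

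The intervals bound how large a difference could be. For 34 of the 35 genes, all except Psma8, the 95% interval of the fold change lay within 2-fold either way, which held for 59.4% of all genes tested. Within 1.5-fold lay the intervals of 29 of the 35, against 27.1% of all genes and 42.0% of the 8045 genes with a mean of at least 500, since the interval narrows with the level. These intervals are not adjusted for the number of genes. The spread between libraries of a group was small as well, with a median within-group SD of 0.15 on the log2 scale over the 35 genes, against 0.30 over all genes tested and 0.23 over those with a mean of at least 500. The last set is not matched for level, since its median level was 1998 and that of the 35 genes 3645. Apart from Psma8, every subunit had between 404 and 12127 reads in each library, so reads were not scarce for these 34 genes.

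**Figure D1:**
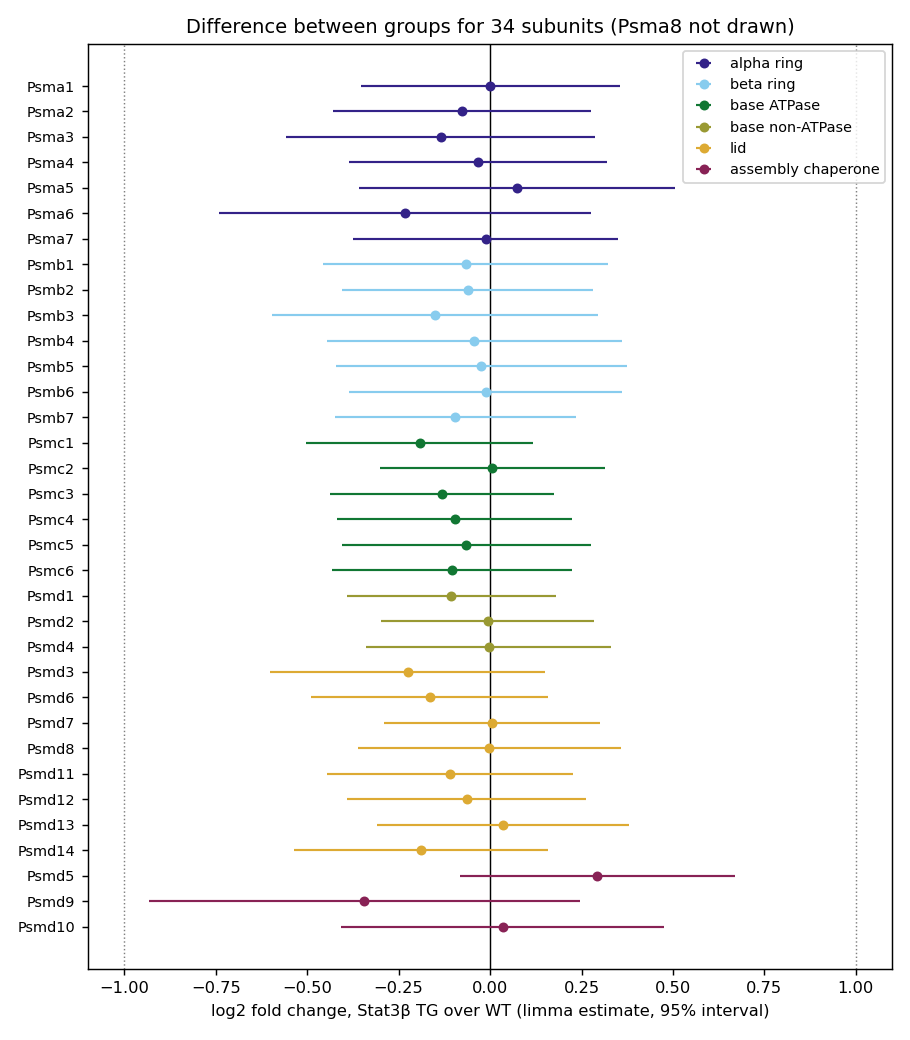
The horizontal axis is the log2 ratio of Stat3β TG to WT with its 95% interval from limma, for 34 subunits in rows, coloured by their place in the proteasome; dotted lines mark 2-fold. All 34 intervals include 0 and lie between the dotted lines.

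The beta subunits Psmb5, Psmb6 and Psmb7 carry the threonines that cut the substrate, and Psmb5, which cuts after hydrophobic residues, is the main target of the drug bortezomib. Psmb5 (Entrez 19173, chromosome 14, 54614120 to 54617995, minus strand, GRCm38) was at 863, 823 and 899 normalized counts in WT 1 to 3 and at 730, 889 and 937 in Stat3β TG 1 to 3. The Stat3β TG libraries thus spanned the WT ones on both sides. Its log2 fold change was -0.02 ± 0.17 (SE; 95% interval -0.42 to 0.37; limma adjusted p = 0.965). Psmb6 (chromosome 11, 70525324 to 70527858, plus strand), which cuts after acidic residues, was at 3432, 3798 and 3664 in WT and at 2957, 4056 and 3886 in Stat3β TG. The lowest and the highest of its values were both in Stat3β TG, and its group means were 3631 ± 186 and 3633 ± 592 (SD, n = 3 each; limma adjusted p = 0.982). Psmb7 (chromosome 2, 38588046 to 38643952, minus strand), which cuts after basic residues, was at 3051, 3330 and 3515 in WT and at 2771, 3403 and 3110 in Stat3β TG, again with overlapping groups (log2 fold change -0.09 ± 0.14 SE, limma adjusted p = 0.821). Stat3β TG 1 was the lowest library for each of these genes.

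Proteasome genes are known targets of the transcription factor NRF1 (gene Nfe2l1), which binds antioxidant response elements when the proteasome is impaired. Nfe2l1 itself was at 3811, 4291 and 4186 in WT and at 3842, 3220 and 3212 in Stat3β TG. Stat3β TG 1 lay just above the lowest WT library, and the log2 fold change was -0.26 ± 0.14 (SE, limma adjusted p = 0.668). The element's core letters, TGACNNNGC on either strand, were looked for in the 250 bases before the RefSeq start sites (GRCm38.p6) of the 28 subunit genes in the promoter table. They were present for 5 of 28 genes (17.9%), against 14.1% of the 10108 tested genes in the table and 11.5% of all 27025 genes there. These shares are close to each other. The longer MAF-type form of the element, which can overlap the core, was present for 0 of 28 genes (1.27% of all genes in the table). The CCAAT box, bound by the factor NF-Y, was present for 11 of 28 (39.3%, against 40.7% of tested genes). A match shows letters, not binding, and no match says only that these letters are not in this window. The stretches around 4 of the 5 matches are shown, as examples of a match near the start (Psmb5, Psmd9) and far from it (Psmd12, Psmc6); capitals mark the match, and each runs 5′ to 3′ on the strand of its gene. In Psmb5 (chr14:54617996-54618082, minus strand) the match was at -47 to -39 from the start, in Psmd9 (chr5:123228119-123228189, plus strand) at -31 to -23, in Psmd12 (chr11:107479278-107479329, plus strand) at -247 to -239 and in Psmc6 (chr14:45329574-45329645, plus strand) at -227 to -219. The last 2 read on the opposite strand. The match of the fifth gene, Psmb6, was at -9 to -1, and its stretch is left out because it overlaps the annotated gene.
Psmb5: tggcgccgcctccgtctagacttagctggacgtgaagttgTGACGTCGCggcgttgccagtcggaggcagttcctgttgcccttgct
Psmd9: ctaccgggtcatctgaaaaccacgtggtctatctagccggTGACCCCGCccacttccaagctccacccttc
Psmd12: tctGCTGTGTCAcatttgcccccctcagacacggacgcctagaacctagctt
Psmc6: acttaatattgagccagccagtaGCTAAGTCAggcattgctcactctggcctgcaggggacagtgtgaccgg

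The other beta subunits have no catalytic role and complete the ring. All 7 beta genes had negative log2 fold changes, from -0.15 to -0.01, and all 7 were lowest in Stat3β TG 1. Without that library the sign of both Psmb5 and Psmb6 turned, to 0.08 and 0.13. Psmb3, the beta gene with the smallest p, was at 1046, 1431 and 1272 normalized counts in WT and at 934, 1256 and 1188 in Stat3β TG. WT 1 fell among the Stat3β TG values, and the log2 fold change was -0.15 ± 0.19 (SE, limma adjusted p = 0.796). Psmb4 showed the low value of Stat3β TG 1 most plainly among abundant subunits, at 5728, 6303 and 5910 in WT and at 4572, 6628 and 6434 in Stat3β TG; it was chosen for this after its values were seen.

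In the alpha ring 5 of 8 genes were lower and 3 higher. Psma6 was at 4242, 6924 and 7043 normalized counts in WT and at 4411, 5394 and 5370 in Stat3β TG. WT 1 was the lowest of all 6 libraries, and WT 2 and WT 3 were the highest, so the groups overlapped fully (log2 fold change -0.23 ± 0.22 SE, limma adjusted p = 0.730). Psma3 was at 575, 573 and 590 in WT and at 501, 497 and 588 in Stat3β TG. Only Stat3β TG 3 reached the WT values (log2 fold change -0.14 ± 0.18 SE, limma adjusted p = 0.804).

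Psma8 was the exception among the 35 genes. It encodes an alpha subunit that takes the place of the Psma7 product in male germ cells, and it is not a part of the standard proteasome of blood cells. It was at 0, 12.2 and 1.41 normalized counts in WT 1 to 3 and at 63.6, 12.3 and 407 in Stat3β TG 1 to 3. Stat3β TG 3 alone stood far above the rest, and Stat3β TG 2 was level with WT 2, from 10 reads and 9 reads. WT 1 and WT 3, the lowest libraries for Psma8, are also those with high Xist and low Y-linked genes. The part of that sex-linked pattern in the Psma8 difference was not tested. In reads, the 3 WT libraries together had 10 and the 3 Stat3β TG libraries 829, of which 724 came from Stat3β TG 3. The log2 fold change was 4.48 on the scale with a pseudocount of 1 (95% interval 1.28 to 7.67), with an unadjusted limma p of 0.0122 and an adjusted p of 0.668 (edgeR 0.688, DESeq2 0.351). Its size depended on the pseudocount, at 5.80 with 0.1 and 2.88 with 8, and on the libraries, at 3.21 without Stat3β TG 3 and 2.42 with WT 2 as the only WT library. Since Psma8 met the value rule mainly through Stat3β TG libraries, its direction is no result about the family. Psma7, by contrast, was at 5207, 5455 and 5775 in WT and at 4639, 5406 and 6375 in Stat3β TG (log2 fold change -0.01 ± 0.16 SE, limma adjusted p = 0.981). The WT values of Psma7 lay inside the Stat3β TG range, and the Psma8 level stayed at a small fraction of it in every library. In the GENCODE transcripts Psma8 and Psma7 shared no stretch of at least 200 bases at 95% identity or more. Shorter or less similar stretches were left out by this cut, and whether reads of Psma7 were counted for Psma8 was not tested.

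**Figure D2:**
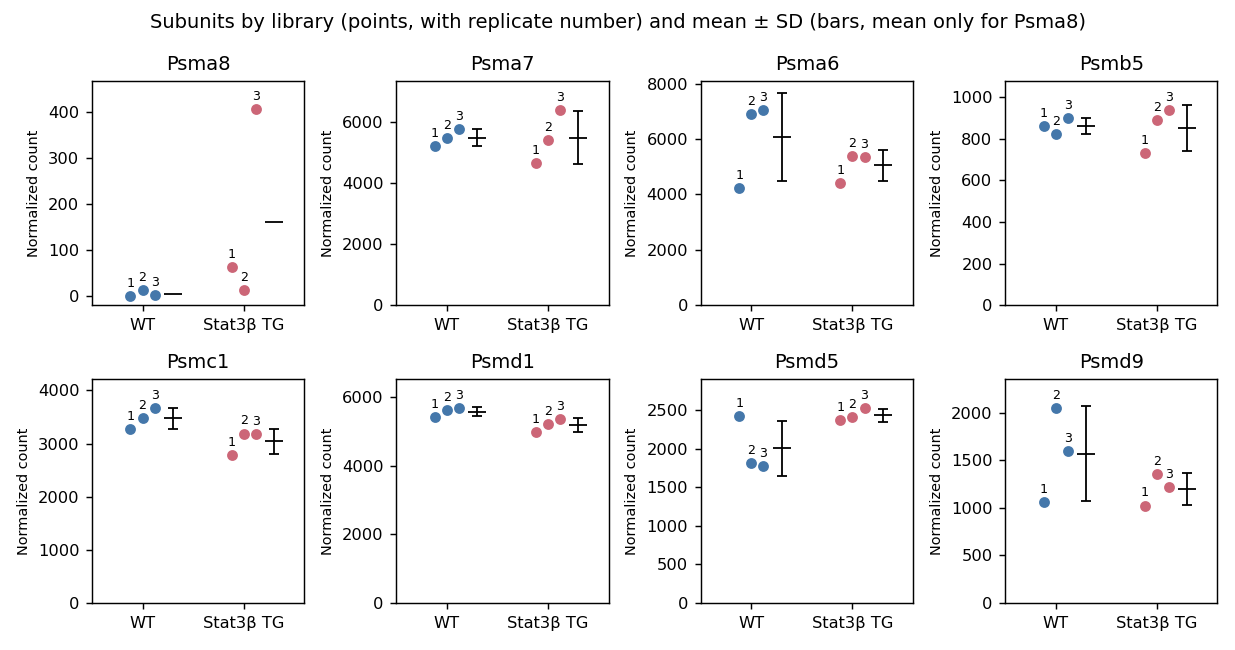
Each panel shows 1 subunit, with normalized counts on the vertical axis (from 0), the WT and Stat3β TG libraries as points marked by replicate number, and the group mean ± SD as a bar beside them (n = 3 each; mean only for Psma8). Groups overlap except in Psmc1 and Psmd1, where Stat3β TG is lower, and in Psma8, where Stat3β TG 3 stands alone at 407.

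In the base of the regulatory particle, 5 of the 6 ATPase genes were lower in Stat3β TG and 1, Psmc2, was higher by 0.0054 (log2), with a median of -0.10. Psmc1 (chromosome 12, 100110202 to 100123364, plus strand) was at 3280, 3483 and 3670 normalized counts in WT and at 2776, 3189 and 3171 in Stat3β TG. Every Stat3β TG library was below every WT library, but the gap between 3189 and 3280 was smaller than the spread within either group. The means were 3478 ± 195 and 3045 ± 233 (SD, n = 3 each), a log2 fold change of -0.19 ± 0.13 (SE, limma adjusted p = 0.675). Psmc3 (chromosome 2, 91054016 to 91059438, plus strand) was at 6575, 6741 and 7044 in WT and at 5625, 6549 and 6449 in Stat3β TG, so that WT 1 was barely above Stat3β TG 2. Its log2 fold change was -0.13 ± 0.13 (SE, limma adjusted p = 0.742).

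Psmd1, Psmd2 and Psmd4 encode the base subunits without ATPase activity; the Psmd4 product binds ubiquitin chains. Psmd1 (chromosome 1, 86064619 to 86139295, plus strand) was at 5421, 5625 and 5682 normalized counts in WT and at 4973, 5201 and 5365 in Stat3β TG. The groups did not overlap, and its pooled within-group SD on the log2 scale, 0.046, was the smallest of the 35 genes. Its log2 fold change was -0.11 ± 0.12 (SE, limma adjusted p = 0.774). Psmd2 and Psmd4 had log2 fold changes of -0.0066 and -0.0037. Over all 35 genes the groups did not overlap in 4, lower in Stat3β TG for Psmc1, Psmc3 and Psmd1 and higher for Psma8. Of all genes tested 10.8% did not overlap, 4.92% with Stat3β TG lower, so 4 of 35 and 3 of 35 are near the background.

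The lid genes Psmd3, Psmd6, Psmd7, Psmd8, Psmd11, Psmd12, Psmd13 and Psmd14 were lower in 6 of 8 cases, with a median log2 fold change of -0.09. Psmd14 encodes the deubiquitinase of the lid, which removes the ubiquitin chain as the substrate is drawn in. It was at 4088, 5293 and 4489 normalized counts in WT and at 3698, 4247 and 4169 in Stat3β TG. WT 1 was inside the Stat3β TG range (log2 fold change -0.19 ± 0.15 SE, limma adjusted p = 0.691). Psmd3, a scaffold subunit of the lid, was at 4865, 6334 and 6861 in WT and at 5057, 5307 and 4928 in Stat3β TG. WT 1 was the lowest of the 6 libraries while the other WT libraries were the highest (log2 fold change -0.23 ± 0.16 SE, limma adjusted p = 0.675). Psmd7 and Psmd13 were the lid genes that were not lower, with log2 fold changes of 0.0044 and 0.035.

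Psmd5, Psmd9 and Psmd10 carry subunit names but encode chaperones that guide assembly of the base and leave the finished particle. Psmd5 was at 2416, 1819 and 1780 normalized counts in WT and at 2367, 2405 and 2527 in Stat3β TG. WT 1 was level with Stat3β TG, and WT 2 and WT 3 were lower than all of the others. The log2 fold change was 0.29 ± 0.16 (SE, limma adjusted p = 0.668). Psmd9 went the other way, at 1056, 2048 and 1600 in WT and at 1023, 1352 and 1223 in Stat3β TG. Its WT 1 value was near the lowest Stat3β TG value, and its log2 fold change was -0.34 ± 0.25 (SE, limma adjusted p = 0.677). Psmd10 was at 1070, 784 and 844 in WT and at 796, 954 and 1001 in Stat3β TG, with fully overlapping groups and a log2 fold change of 0.03. The 3 chaperone genes thus had no common direction.

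The order of libraries in Psmd5, Psmd9, Psma6 and Psmd3 followed that leading component rather than the labels. In 10 of the 35 genes WT 2 and WT 3 were the highest pair of libraries, and in 1, Psmd5, the lowest pair. These 11 are 31.4% of the subunits, and 42.4% of all genes tested showed 1 or the other order. Over all 12642 genes tested the pair was highest in 2596 and lowest in 2764, whereas the subunits with such an order mostly had the pair highest. Without WT 1, the unadjusted limma p was under 0.05 for 5 of the 35 genes (Psma6, Psmd3 and Psmd9 lower, Psma8 and Psmd5 higher), or 14.3%, against 27.0% of all genes tested. Of the 35, 0 passed after adjustment (smallest adjusted p 0.101), while 346 of all genes tested did. With WT 2 and WT 3 both left out, the log2 fold changes of Psma6, Psmd3 and Psmd9 were 0.25, 0.07 and 0.17, so their signs turned.

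**Figure D3:**
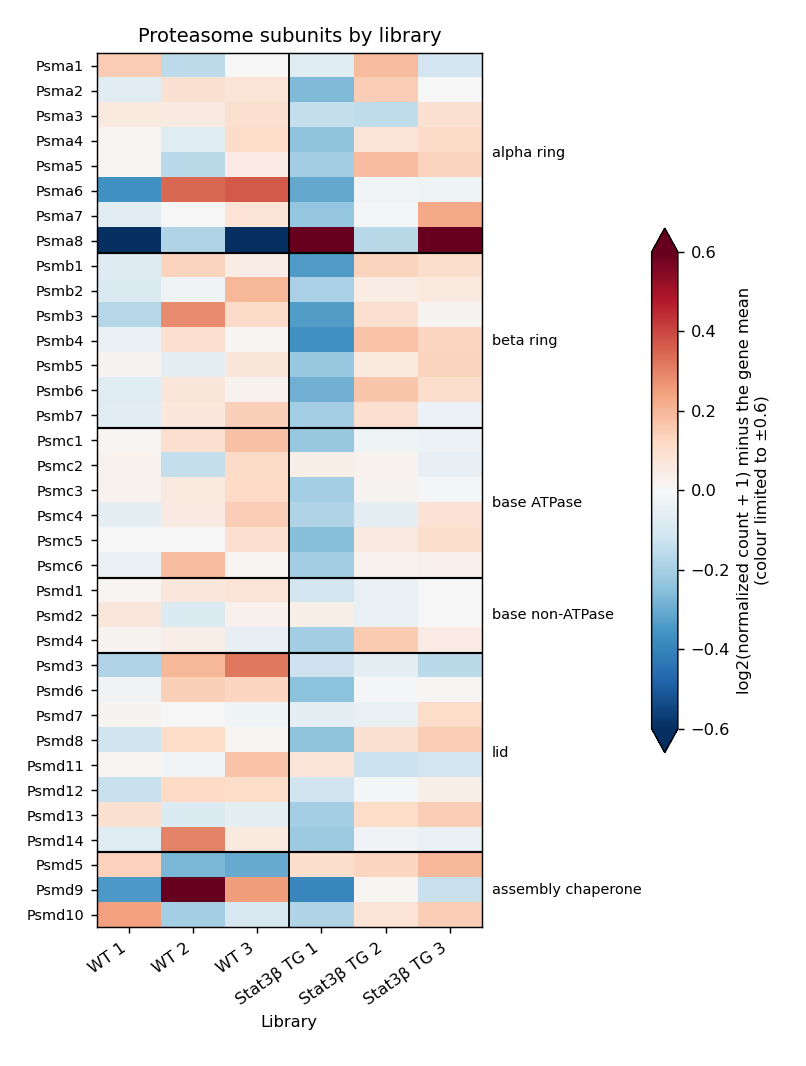
Rows are the 35 subunits grouped by their place in the proteasome, columns are the 6 libraries, and colour is the log2(normalized count + 1) minus the mean of that gene over the libraries, limited to 0.6 either way. Stat3β TG 1 is blue in most rows, and the Psma8 row has a pattern of its own. In the rows of Psma6 and Psmd9 WT 2 and WT 3 are the highest libraries, and in the row of Psmd5 they are the lowest.

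The largest shared movement was in 1 library. Stat3β TG 1 was the lowest of the 6 libraries for 24 of 35 subunits (68.6%), against 16.1% of all genes tested, and the highest for 0 of 35, against 16.8%. It was lowest for 11 of 15 core genes and for 13 of 20 regulatory genes. The subunits' summed counts made up 0.365% of all normalized counts in Stat3β TG 1 and between 0.432% and 0.456% in the other 5 libraries, a share that does not depend on the scaling between libraries. Its recovered reads, 46579680, were nearly as many as those of Stat3β TG 3, which was lowest for 0 of the 35 genes, and the part of depth was not tested. The high sum of mature neutrophil markers in Stat3β TG 1 given above moves with this pattern, and its part was not tested. In bulk RNA, fewer cells of one kind and less RNA per cell cannot be told apart.

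Core and regulatory particle were then compared. Of the 15 core genes 12 were lower in Stat3β TG and 3 higher, and the median log2 fold change was -0.04. Of the 20 regulatory genes 15 were lower and 5 higher, with a median of -0.08, against 0.01 over all genes tested, of which 48.6% were lower. Without the 3 assembly chaperones the regulatory median was -0.10. The difference of the medians, core minus regulatory, was 0.04. The difference of the means was 0.31 with Psma8 and 0.01 without it. Library by library and without Psma8, the mean log2 level of the core minus that of the regulatory particle was -0.36, -0.33 and -0.29 in WT 1 to 3 and -0.42, -0.25 and -0.28 in Stat3β TG 1 to 3. The WT values lay inside the Stat3β TG range, at -0.33 ± 0.04 and -0.32 ± 0.09 (SD, n = 3 each). In WT 1 the median core gene was at -0.06 from its own mean and the median regulatory gene at 0.01, and in WT 2 and WT 3 both were between 0.05 and 0.09. In Stat3β TG 2 and 3 the median core gene was 0.09 and 0.10 above its own mean and the median regulatory gene was within 0.02 of its mean, while in Stat3β TG 1 they were at -0.23 and -0.19. Without Stat3β TG 1 the core median was 0.08, the regulatory median -0.03 and their difference 0.11.

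**Figure D4:**
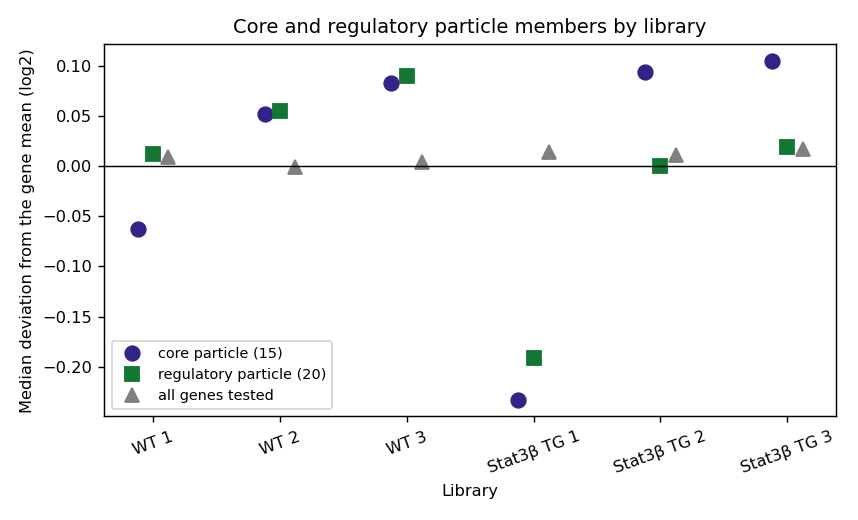
The vertical axis is the median, over the genes of a particle, of the deviation of log2(normalized count + 1) from the gene's own mean, for each of the 6 libraries on the horizontal axis. Core (circles) and regulatory particle (squares) move together to about -0.2 in Stat3β TG 1, while the median over all genes tested (triangles) stays near 0.

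The subunits stand together in the particle in fixed numbers, but their transcript levels per length did not. On the scale of normalized counts per kilobase of coding sequence (mean of 6 libraries, coding length of the GENCODE M21 principal transcript), Psma1 was highest at 9394 and Psma8 lowest at 110. Without Psma8 the 14 core genes had a median of 5578 and the 20 regulatory genes a median of 2921. The regulatory genes here include the assembly chaperones, which leave the finished particle. By class, the median was 6879 for the alpha ring without Psma8 and 5087 for the beta ring. It was 3036 for the ATPases, 2468.5 for the other base subunits and 3536 for the lid. Levels of the ATPases lay between 2471 and 4900, and those of the alpha ring without Psma8 between 724 (Psma3) and 9394 (Psma1). The chaperones Psmd5, Psmd9 and Psmd10, at 1468, 2077 and 1311, were lower than each of the 6 ATPases. Near-identical copies bear on this order, because reads that match several places can be lost or shared. For 8 of the 35 genes (Psma3, Psma4, Psma5, Psmb3, Psmb5, Psmc1, Psmd2 and Psmd11) the GENCODE transcripts held at least 1 pseudogene copy with a stretch of at least 200 bases at 95% identity or more, 14 copies in all. These 8 had a median of 1597, and the 26 without such a copy, leaving out Psma8, had a median of 4064. The part of the copies in the low levels was not tested, and the level of catalytic Psmb5, at 1082, is uncertain for this reason. Over the genes without a copy the core still had the higher median, 7361 for 9 genes against 3124 for 17 regulatory genes, chaperones included. Per kilobase of the whole transcript, UTRs included, the medians were closer, 3069 for the 14 core genes and 2274 for the 20 regulatory genes. The lowest genes after Psma8 were then Psma3, Psmd5, Psmd9 and Psmd11, at 195, 505, 533 and 561, of which Psmd5 and Psmd9 have no copy.

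**Figure D5:**
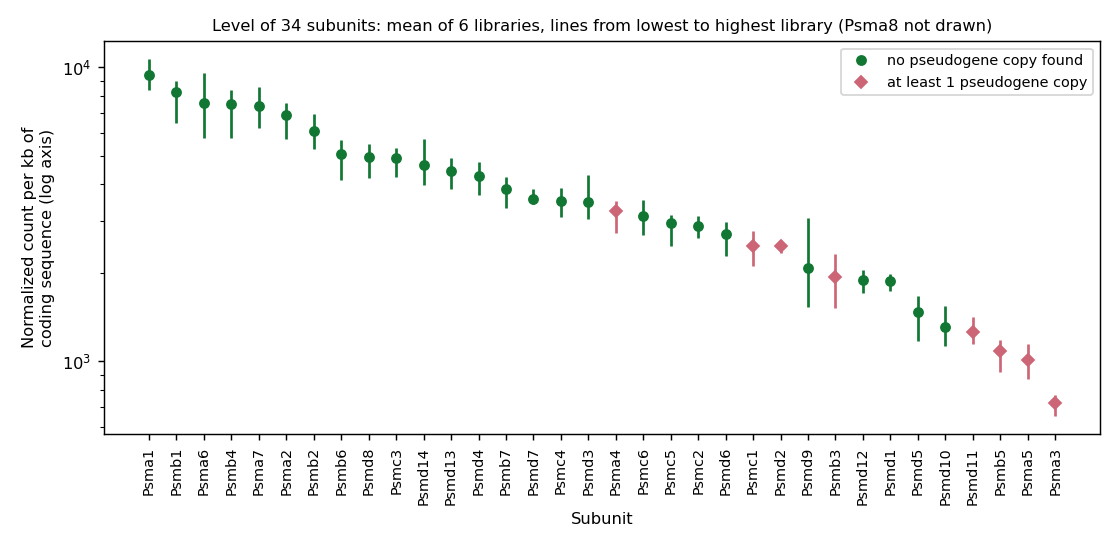
The vertical axis (log scale) is the normalized count per kilobase of coding sequence, with the mean of 6 libraries as a symbol and a line from the lowest to the highest library, for 34 subunits in order of level; diamonds mark genes with a pseudogene copy. The 4 lowest genes, Psma3, Psma5, Psmb5 and Psmd11, all carry a diamond on this scale.

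The immunoproteasome genes Psmb8, Psmb9 and Psmb10 encode catalytic subunits that replace those of Psmb5, Psmb6 and Psmb7 in blood cells and under interferon. Psmb8 was at 5070, 6314 and 7797 normalized counts in WT and at 4544, 4747 and 7353 in Stat3β TG (limma adjusted p = 0.758). Psmb9 was at 1649, 1412 and 1987 in WT and at 1500, 1643 and 2523 in Stat3β TG (limma adjusted p = 0.835). Psmb10 was at 2506, 2870 and 2568 in WT and at 2035, 2609 and 3678 in Stat3β TG (limma adjusted p = 0.971). Groups overlapped for each of them, and Stat3β TG 3 was the highest library for Psmb9 and Psmb10. Per kilobase of coding sequence, Psmb8 was 7.08 ± 1.36 times the level of Psmb5 in WT and 6.19 ± 1.22 times in Stat3β TG. This ratio is inflated to an unknown extent if reads of Psmb5 were lost to its copy. Psmb9 was at 0.505 ± 0.094 and 0.566 ± 0.133 times Psmb6, and Psmb10 at 0.816 ± 0.068 and 0.908 ± 0.254 times Psmb7 (SD, n = 3 each). So transcripts of both kinds of catalytic subunit were present in every library.

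Other genes of the pathway came from a list of 41, of which 40 were tested. By limma 0 of the 40 passed after adjustment, where 0% of all genes tested did. An unadjusted limma p under 0.05 was found for 1 of the 40, against 6.1% of all genes tested. Of the 40, 22 were higher and 18 lower in Stat3β TG, and the median log2 fold change was 0.04. The groups did not overlap in 2 of the 40, Ubb and Rps27a, against 10.8% of all genes tested. The 5 assembly factors of the core, Pomp and Psmg1 to Psmg4, were higher in 4 cases and lower in 1, and the activators Psme1 to Psme4 were lower in 3 of 4, all within their spread. The gene with an unadjusted limma p under 0.05 was Ubb, which encodes polyubiquitin. Ubb was at 290, 380 and 477 normalized counts in WT and at 211, 179 and 217 in Stat3β TG. Every Stat3β TG library was below every WT library, a log2 fold change of -0.89 ± 0.28 (SE), with an unadjusted limma p of 0.0124 and an adjusted p of 0.668 (DESeq2 0.199). Rps27a, which encodes ubiquitin fused to a ribosomal protein, went the opposite way, at 199, 206 and 191 in WT and at 281, 344 and 224 in Stat3β TG (log2 fold change 0.49 ± 0.27 SE, limma adjusted p = 0.668). Ubiquitin genes have many near-identical copies, so both values are uncertain.

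Usp14, Nfe2l2 and Nploc4 were named by the same rule of smallest p. Usp14, a deubiquitinase bound to the regulatory particle, was at 2962, 3777 and 3858 normalized counts in WT and at 2887, 3050 and 3072 in Stat3β TG (limma adjusted p = 0.675). Nfe2l2, which encodes the oxidative stress factor NRF2, was at 2868, 3105 and 2380 in WT and at 3067, 3081 and 3351 in Stat3β TG (limma adjusted p = 0.686). Nploc4, a cofactor of the segregase VCP that extracts ubiquitinated proteins, was at 3830, 5995 and 4842 in WT and at 4212, 4151 and 3932 in Stat3β TG (limma adjusted p = 0.688). In each of these genes the groups overlapped, while WT 1 was inside the Stat3β TG range for Usp14 and below it for Nploc4 and Nfe2l2.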

How the data were processed

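RNA-seq libraries of sorted blasts were compared, 3 WT against 3 Stat3β TG, grouped by the sample titles. The authors deposited gene-level normalized counts, a signal with 1 column per library; the tools named in the submitters' processing notes are STAR, FastQC and DESeq2, and the build is GRCm38 (mm10), while versions, the read counter, strandedness and filters were not stated in what was used here. Every one of the 146724 values was a whole multiple of 1 step per library (100% within 0.001), so whole reads were recovered; the upper limit for a gene with no read, 3 reads, equals 1.69 to 4.22 normalized counts, for counting error only. Of 24454 IDs 24376 had a symbol in RefSeq GRCm38.p6. The 12642 genes at 10 or more in 3 or more libraries were tested across all genes on log2(normalized count + 1) with limma 3.58.1 (trend, robust, group as the only term, two-sided, Benjamini-Hochberg, threshold 0.05) in R 4.3.3; fold changes of low genes are understated on this scale. edgeR 4.0.16 (quasi-likelihood, TMM) and DESeq2 1.42.0 (Wald) were run on the recovered reads as alternatives, and the scripts were tested on simulated data. All pairs of libraries differed by more than sampling noise (chi-square per gene 65.9 to 225). Other alternatives were the pseudocount, the filter, quantile normalization, unrobust moderation, the replicate block and left-out libraries. Copies were sought with blastn in GENCODE M21 transcripts. Genes given library by library were the catalytic subunits, the 5 with the smallest p in each particle, those whose groups do not overlap, and in the list of other proteasome genes Psmb8, Psmb9, Psmb10, Nfe2l1 and the 6 others with the smallest p, of which 1 is not reported here; Psma7, Psmb4 and Psmd10 were added after their values were seen. The members and lists were chosen with earlier results of these data known.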

Additional observations from a re-analysis of the deposited data

How the results depend on the processing

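The count of subunits past the adjusted threshold was 0 in all 17 alternatives. The count of all genes past it, 0 by limma, was 17 by DESeq2, 0 to 346 when 1 library was left out, 9 without both WT 2 and WT 3 and 740 without both WT 1 and WT 3; leaving out a pair leaves 1 WT library, assumed to vary like the others, and the cause was not tested. The core minus regulatory difference of medians (0.04) was -0.0089 to 0.11 when 1 library was left out, and 0.31 as a difference of means, which Psma8 sets. Of the fold changes of named genes under these alternatives, 389 kept their direction and 18 turned it, all without passing the threshold. With single libraries left out, the log2 fold change ranged from -0.097 to 0.083 for Psmb5, -0.098 to 0.13 for Psmb6, -0.086 to 0.29 for Psmb9 and -0.20 to 0.23 for Psmb10. Without both WT 2 and WT 3 it turned to 0.069 for Psmb6, 0.016 for Psmb7, 0.25 for Psma6, 0.095 for Psmb3, 0.067 for Psmd3, 0.17 for Psmd9, 0.094 for Psmb8, 0.019 for Usp14 and 0.097 for Nploc4; without both WT 1 and WT 3 to 0.041 for Psmb5 and -0.092 for Psmb10; the cause was not tested. With the replicate block, 0 genes and 0 subunits passed, and the medians of core and regulatory genes stayed at -0.04 and -0.08. The deviations of same-numbered libraries had correlations of 0.14, 0.10 and -0.11, and those of other pairs ran from -0.20 to 0.14. With 3 libraries per group, these values cannot show whether a number marks anything shared, and the labels are silent on it. Reads were scarce only for Psma8 among the subunits, and other effects of depth were not tested.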
